A study of Mus musculus with 6 samples.

Results

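Slpi, Reln, Neb, Cacna1h, Oosp1 and Gpr55 are 6 of the 22475 genes in the deposited count table. They were chosen by name with their lower RNA without miR-155 in these same libraries already known, and none is an immunoglobulin gene. Their group differences are therefore given below as a description, and nothing is supported with them. The RNA was that of bone marrow cells sorted as Lin- Sca1+ cKit+, a gate that holds the blood stem cells and early progenitors of the mouse. The 3 libraries labelled FLT3-ITD miR-155-/- (called KO here) came from mice without miR-155, and the 3 libraries labelled FLT3-ITD (called control) from mice with wild-type miR-155. Mice of both groups were homozygous for FLT3-ITD, a duplication within the FLT3 gene that makes this receptor kinase signal without its ligand, so every value below was measured on that background. RNA of 3 mice was combined in each library, and p-values measure the spread between pools. How the alleles were made and how old the mice were is not given in the sources used here.

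MicroRNAs pair through their seed, bases 2 to 8, with matching sites in messenger RNAs and lower the output of those messages. miR-155 is a microRNA of immune cells that takes part in B cell and plasma cell responses and is raised in leukaemia with FLT3-ITD. Its mature sequence (RefSeq, GRCm38.p6, chr16:84714143-84714165, plus strand) is shown with the seed in capitals because the members' 3' UTRs were searched for its match.
mmu-miR-155-5p: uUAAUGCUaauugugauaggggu
The 6 genes are best known from different tissues. Slpi is a secreted inhibitor of neutrophil proteases, and Reln a large secreted glycoprotein that positions migrating neurons. Neb is the giant protein of the thin filament in skeletal muscle, and Cacna1h the pore subunit of a T-type (low-voltage-activated) calcium channel. Oosp1 encodes an oocyte secreted protein, and Gpr55 a G protein-coupled receptor for lysophosphatidylinositol. Igj, the J chain that joins polymeric IgM and IgA, and Mzb1, a chaperone of the endoplasmic reticulum that helps antibody assembly, mark antibody-secreting plasma cells and served as the yardsticks for the 6 genes.

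Library totals lay between 6843129 and 7601317 counts in the KO and between 8136914 and 9443615 in the control. The 221 immunoglobulin genes took 0.501% to 1.53% of the counts in KO libraries and 2.44% to 3.73% in control libraries. The 169 immunoglobulin genes tested had a median log2 fold change of -2.61 (KO over control), against 0.001 for all 13217 genes tested, and 164 of them were negative. Gm26667, the transcript of the miR-155 host locus, had 4, 14 and 4 counts in KO libraries and 33, 48 and 36 in control libraries. The sort markers Kit and Ly6a had log2 fold changes of -0.12 and 0.11, with overlapping groups. No 2 libraries of a group agreed within sampling noise (chi-square over degrees of freedom 7.29 or more).

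The RNA of all 6 genes stood at 23.4% to 34.1% of the control level in the KO, and the highest KO library lay below the lowest control library for each of them. Groups that did not overlap with the KO lower were found in 4.79% of all tested genes, a share from which nothing is read here because the genes were selected on this contrast. Igj stood at 26.0% and Mzb1 at 25.7% of the control level. The genes are far apart in level: in FPKM, which scales for transcript length, Slpi averaged 24.7 ± 6.54 in the KO and 72.2 ± 7.0 in the control (SD, n = 3 each). Oosp1 averaged 2.88 ± 1.13 in the KO and 8.97 ± 0.551 FPKM in the control. Gpr55, Cacna1h, Reln and Neb averaged 0.849, 0.510, 0.410 and 0.0547 FPKM in the KO, against 2.49, 1.81, 1.74 and 0.226 FPKM in the control. Neb was thus the lowest of the 6 per length in both groups, and Igj, at 497 FPKM in the KO and 1912 FPKM in the control, stood above all of them. Because these are bulk samples, fewer cells of a type and less RNA per cell cannot be told apart.

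**Figure D1:**
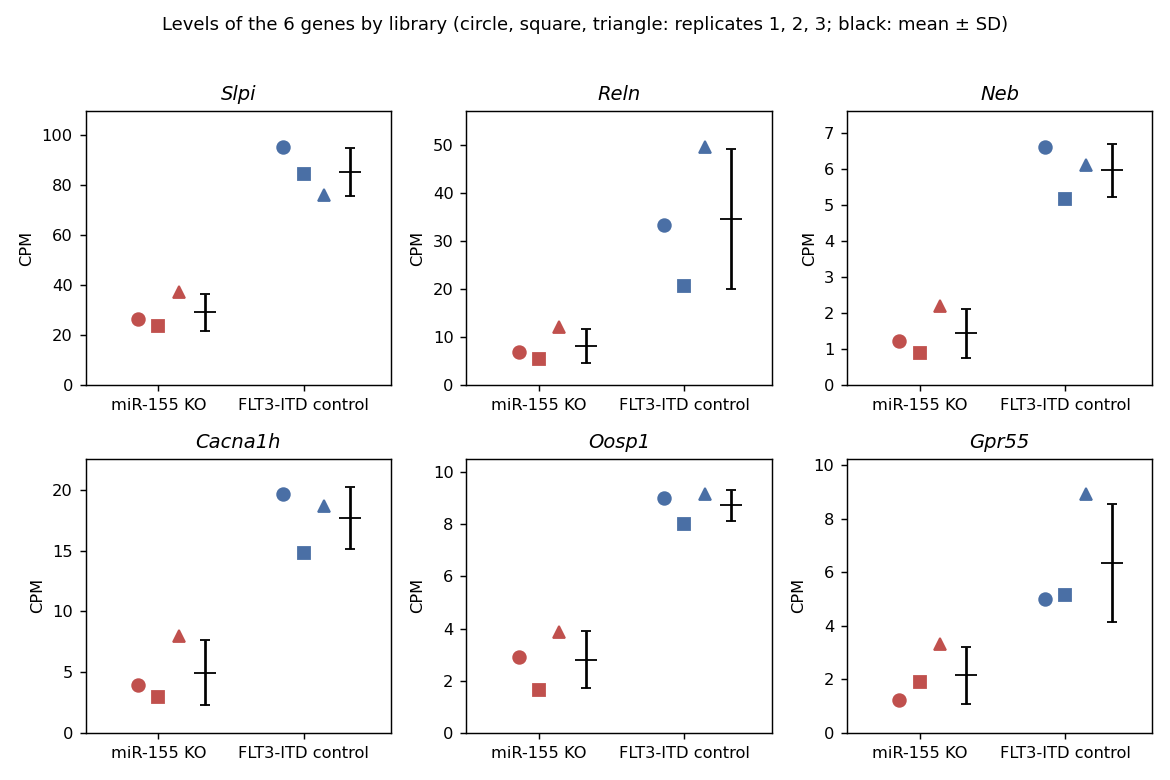
CPM (linear axes from 0) of the 6 genes in each library, with the KO libraries left and the control libraries right; the black marks give the mean ± SD of 3 libraries. In each panel the 3 KO libraries lie below the 3 control libraries, and KO replicate 3 (triangle) is the highest KO library.

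Slpi (ENSMUSG00000017002, chr2:164354070-164389095, minus strand, GRCm38 as for all genes below) blocks neutrophil elastase and cathepsin G and is known from mucosal epithelia and myeloid cells. Its promoter, 250 bases before to 50 after the start, is printed first because Slpi had the most reads of the 6. The RefSeq start used for it lies inside the gene span given here, not at its upstream end. The window is taken from RefSeq (GRCm38.p6, chr2:164356458-164356757, minus strand), with the letters of the XBP1 core CCACG in capitals.
Slpi promoter: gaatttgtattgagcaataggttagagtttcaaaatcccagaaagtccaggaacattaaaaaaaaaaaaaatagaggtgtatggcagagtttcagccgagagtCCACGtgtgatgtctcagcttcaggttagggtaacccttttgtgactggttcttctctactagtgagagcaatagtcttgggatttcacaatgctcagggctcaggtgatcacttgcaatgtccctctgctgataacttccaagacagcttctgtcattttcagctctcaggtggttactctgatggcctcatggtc
Slpi had 172, 184 and 272 counts in KO replicates 1 to 3 and 880, 736 and 624 in control replicates 1 to 3. In CPM, with library sizes from the TMM method, this was 26.3, 23.5 and 37.4 in the KO and 95.4, 84.3 and 76.1 in the control. The lowest control library was replicate 3, whose KO counterpart of the same number was the highest of its group. edgeR put the difference at -1.55 ± 0.18 (log2 fold change, KO over control, ± SE; adjusted p 0.0369 over all tested genes). By equal replicate number, log2 CPM in the KO minus that in the control was -1.85, -1.83 and -1.02, so the third pair was the closest together. Without any one of 5 libraries the adjusted p lay between 0.0880 and 0.166, and without KO replicate 3 it was 0.0135.

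Reln (ENSMUSG00000042453, chr5:21884454-22344702, minus strand) had the widest spread between control libraries. Its promoter (RefSeq, GRCm38.p6, chr5:22344656-22344955, minus strand) is shown because its base composition is the most unlike the others; the capitals mark CCACG on the opposite strand.
Reln promoter: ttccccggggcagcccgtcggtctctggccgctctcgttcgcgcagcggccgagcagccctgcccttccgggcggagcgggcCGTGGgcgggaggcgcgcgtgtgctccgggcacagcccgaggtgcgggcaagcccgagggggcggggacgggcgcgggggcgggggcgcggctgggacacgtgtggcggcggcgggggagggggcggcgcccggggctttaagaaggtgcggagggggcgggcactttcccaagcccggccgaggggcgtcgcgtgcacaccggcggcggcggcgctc
Reln had 45, 42 and 88 counts in KO replicates 1 to 3, against 309, 180 and 408 in control replicates 1 to 3. These corresponded to 6.88, 5.37 and 12.1 CPM in the KO and 33.5, 20.6 and 49.7 CPM in the control. Control replicate 2 was the lowest control library and control replicate 3 the highest, and the KO libraries of the same numbers held the same places in their group. That match by number shows in the pair differences of -2.24, -1.89 and -2.02 (log2), the narrowest range of the 6 genes. Without the replicate number the log2 fold change was -2.09 ± 0.40 (SE), adjusted p 0.190 in edgeR. With the replicate number as a block it was -2.09 ± 0.12, adjusted p 5.27e-04.

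Neb (ENSMUSG00000026950, chr2:52136647-52378474, minus strand) was the gene with the fewest reads in the KO. It had 8, 7 and 16 counts in KO replicates 1 to 3 and 61, 45 and 50 in control replicates 1 to 3, or 1.22, 0.895 and 2.20 CPM in the KO and 6.61, 5.16 and 6.10 CPM in the control. The 95% Poisson interval, which covers counting error only, ran from 2.81 to 14.4 for the 7 counts of KO replicate 2 and from 32.8 to 60.2 for the 45 counts of control replicate 2. All 3 KO libraries were above the limit that a count of 0 allows (0.384 to 0.459 CPM in the KO), so the transcript was detected without miR-155 too. Only 1 KO library but all 3 control libraries reached the 1.27 CPM of the filter on low counts: Neb was tested because of the group in which it is high. Its log2 fold change was -2.04 ± 0.35 (SE; adjusted p 0.140 in edgeR) and -2.06 ± 0.30 with the replicate block (adjusted p 0.0281).

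Cacna1h (ENSMUSG00000024112, chr17:25374285-25433783, minus strand) followed Neb more closely than any other member. Its counts were 26, 23 and 58 in KO replicates 1 to 3 and 181, 129 and 153 in control replicates 1 to 3. In CPM these were 3.98, 2.94 and 7.98 in the KO and 19.6, 14.8 and 18.7 in the control. KO replicate 3 stood well above the other KO libraries, and the pair differences of -2.23, -2.24 and -1.20 (log2) were smaller for number 3 than for 1 and 2. Over all libraries the log2 fold change was -1.83 ± 0.35 (SE; adjusted p 0.190 in edgeR). It was -1.88 ± 0.25 with the replicate block (adjusted p 0.0174) and -2.36 without KO replicate 3 (adjusted p 0.0425).

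Oosp1 (ENSMUSG00000041857, chr19:11667460-11691150, minus strand) had the tightest control group. Its promoter (RefSeq, GRCm38.p6, chr19:11691002-11691301, minus strand) is shown because it holds CCACG, on the opposite strand and here in capitals, only at its far end, past the start. As for Slpi, the RefSeq start used lies inside the gene span given here.
Oosp1 promoter: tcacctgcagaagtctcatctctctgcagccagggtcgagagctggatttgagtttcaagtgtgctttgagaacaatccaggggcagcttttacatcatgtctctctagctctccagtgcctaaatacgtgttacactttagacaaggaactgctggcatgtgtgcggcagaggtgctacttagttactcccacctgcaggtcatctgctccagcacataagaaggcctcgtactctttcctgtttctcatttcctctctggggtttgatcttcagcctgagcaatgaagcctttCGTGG
Oosp1 had 19, 13 and 28 counts in KO replicates 1 to 3 and 83, 70 and 75 in control replicates 1 to 3. Scaled, it averaged 2.81 ± 1.1 CPM in the KO and 8.72 ± 0.610 CPM in the control (SD, n = 3 each). The control libraries lay within 8.02 to 9.14 CPM, while KO replicate 3, at 3.85 CPM, was well above KO replicate 2, at 1.66 CPM. The fold change was -1.64 ± 0.31 on the log2 scale (SE; adjusted p 0.184 in edgeR), and -1.66 ± 0.25 with the replicate block (adjusted p 0.0299).

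Gpr55 (ENSMUSG00000049608, chr1:85938318-85961007, minus strand) kept the smallest distance between the groups. Its promoter (RefSeq, GRCm38.p6, chr1:85961006-85961305, minus strand) is printed because it alone of those searched holds the other motifs: the capitals mark the ETS-IRF composite GGAANNGAA, read on the opposite strand, and then the interferon-regulated GAAANNGAA.
Gpr55 promoter: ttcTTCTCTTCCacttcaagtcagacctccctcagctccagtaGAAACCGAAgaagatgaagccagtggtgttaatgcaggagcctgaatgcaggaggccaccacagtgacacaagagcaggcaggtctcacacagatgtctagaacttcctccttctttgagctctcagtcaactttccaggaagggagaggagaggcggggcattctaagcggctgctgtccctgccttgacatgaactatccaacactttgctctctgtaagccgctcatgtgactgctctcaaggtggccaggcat
Gpr55 had 8, 15 and 24 counts in KO replicates 1 to 3 and 46, 45 and 73 in control replicates 1 to 3. In CPM it had 1.22, 1.92 and 3.30 in the KO and 4.99, 5.16 and 8.90 in the control. From the highest KO library to the lowest control library the gap was 0.56 on the log2 CPM scale, against 0.76 to 1.14 for the other 5 genes. In both groups replicate 3 was the highest library. Its log2 fold change was -1.55 ± 0.41 (SE; adjusted p 0.518 in edgeR) and -1.57 ± 0.24 with the replicate block (adjusted p 0.0342). The filter on low counts was reached in 2 KO libraries and in all 3 control libraries.

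Counted together, 1 of the 6 genes (Slpi) passed an adjusted p of 0.05 in edgeR, where 0.144% of all tested genes passed in the lower direction. With the replicate block all 6 passed, beside 1.04% of all tested genes. An adjusted p under 0.05 was given to 5 of the 6 in the authors' deposited table (0.597% of its genes in this direction), the exception being Gpr55 at 0.147, and DESeq2 on the counts likewise called 5 (0.794% of all genes with an adjusted p, in this direction) and gave Gpr55 an adjusted p of 0.109. Nothing is read from these shares, since the genes were selected on this contrast. All 6 were lower in the KO in all 3 pairs of equal number, as were 16.5% of all tested genes, and all 6 had an unadjusted p under 0.05 in edgeR, where 2.48% of all tested genes had one and were lower. Slpi was the only one of the 19 lower genes in edgeR outside the immunoglobulin genes. Among the 13048 other genes ranked from the lowest log2 fold change, Reln was number 7, Neb 8, Cacna1h 13, Oosp1 22, Slpi 28 and Gpr55 29, with Mzb1 at 11 and Igj at 12. The members thus lay within the 29 lowest, a place that goes with how they were chosen. In edgeR 0 members passed without KO replicate 1 or 2 or without any one control library, and 2 (Slpi and Cacna1h) passed without KO replicate 3, with all 6 at an unadjusted p under 0.05 in each of these fits.

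**Figure D2:**
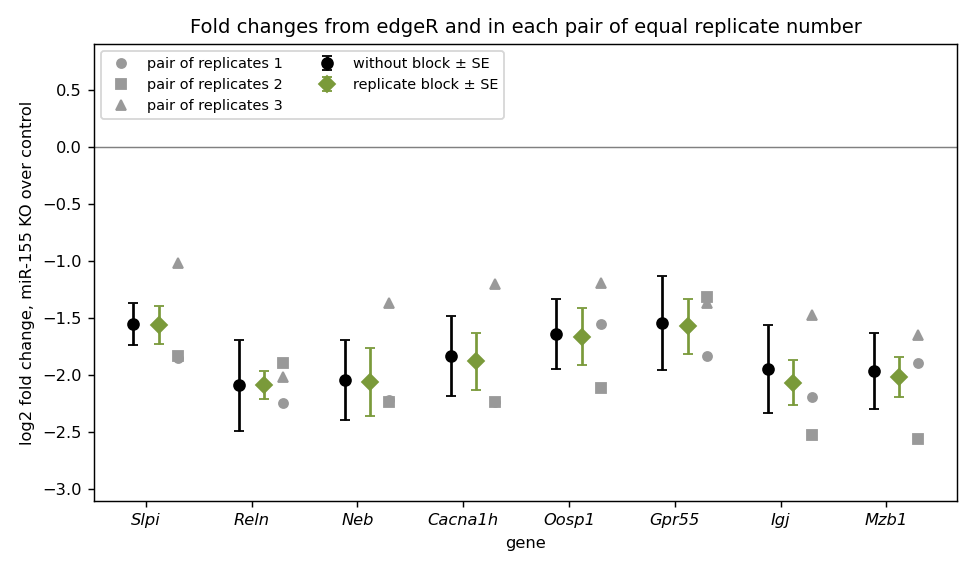
Log2 fold change, KO over control, of the 6 genes, Igj and Mzb1 from edgeR without (black) and with (green) the replicate number as a block, with SE, and in grey the difference within each pair of equal number. All values are below 0; the pair of replicates 3 lies closest to 0 for Slpi, Neb, Cacna1h and Oosp1, as it does for Igj and Mzb1.

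Igj and Mzb1 differed between the groups by about as much as the 6 genes. Igj had 847, 460.2 and 1400 CPM in KO replicates 1 to 3 and 3881, 2650 and 3891 CPM in control replicates 1 to 3. Mzb1 had 10.7, 6.65 and 17.9 CPM in the KO and 40.3, 40.5 and 56.6 CPM in the control. In both genes KO replicate 2 was the lowest and KO replicate 3 the highest library of the KO group. Slpi, Reln, Neb, Cacna1h and Oosp1 placed the KO libraries in that same order, and Gpr55 differed only in having KO replicate 1 lowest. Among the control libraries the order was less alike. Reln and Oosp1 ran from replicate 2 over 1 to 3, as Igj did, and Gpr55 from 1 over 2 to 3, as Mzb1 did. Neb and Cacna1h ran from 2 over 3 to 1, and Slpi from 3 over 2 to 1, the reverse of Mzb1.

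**Figure D3:**
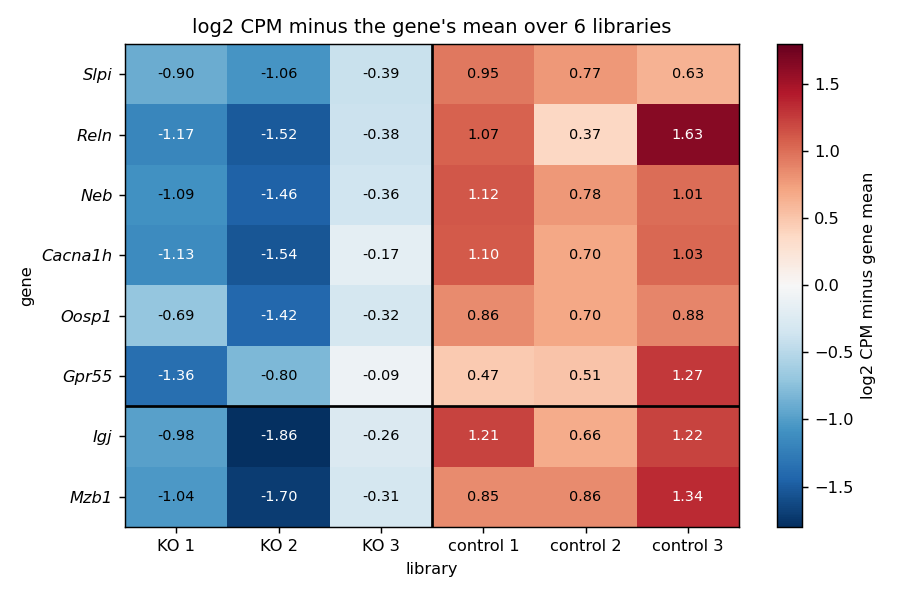
Log2 CPM of each gene minus its own mean over the 6 libraries; KO libraries are on the left and control libraries on the right of the vertical line, and Igj and Mzb1 stand under the horizontal line. KO replicate 3 is the least negative KO library in every row, and Reln in control replicate 3 has the highest value of the 6 genes.

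Across the 6 libraries, log2 CPM of Oosp1 and Igj gave a Pearson r of 0.993 (Spearman rho 1), Cacna1h and Igj 0.992 (0.943), and Neb and Igj 0.988 (0.943). Reln gave 0.971 (1), Slpi 0.961 (0.829) and Gpr55 0.881 (0.886). With Mzb1 the r values were 0.990 for Oosp1, 0.985 for Cacna1h, 0.984 for Neb, 0.972 for Reln, 0.957 for Slpi and 0.921 for Gpr55, and Igj and Mzb1 gave 0.987 with each other. These r describe 6 points that share library, depth and the group difference by which the genes were picked, and 3 libraries within a group are too few for an r of their own. After each gene's group mean was taken off, r with Igj was 0.973 for Oosp1, 0.964 for Neb, 0.959 for Cacna1h, 0.849 for Reln and 0.798 for Slpi, but 0.487 for Gpr55. With Mzb1 it was 0.654 for Gpr55 and 0.677 for Slpi, and 0.844 to 0.933 for the other 4. Gpr55 and Slpi were thus the members that followed the plasma cell pair least within the groups. Gpr55 had 8 to 24 counts in KO libraries and Neb 7 to 16, so counting error enters their r. Its part was not tested. Among the members themselves Neb and Cacna1h were the most alike (r = 0.996, and 0.998 within groups), and Oosp1 and Gpr55 the least over all 6 libraries (r = 0.868). Within groups the lowest r was that of Slpi and Gpr55 (0.357).

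The ratio of each gene's counts to those of Igj in the same library does not depend on library size. It is not scaled for length, so it is compared between libraries only. For Reln the mean log2 ratio was -6.74 ± 0.28 in the KO and -6.72 ± 0.38 in the control (SD, n = 3 each). For Neb it was -9.25 ± 0.22 in the KO and -9.17 ± 0.16 in the control, and for Cacna1h -7.49 ± 0.23 in the KO and -7.61 ± 0.11 in the control. In these 3 genes the KO minus control differences of -0.02, -0.08 and 0.11 were no larger than about the smaller of the group SDs. Oosp1 (0.35), Gpr55 (0.44) and Slpi (0.49) had higher mean ratios in the KO, that is, they were lowered less than Igj. For Slpi the mean ratio was -4.84 ± 0.49 in the KO and -5.33 ± 0.35 in the control. The groups overlapped in all 6 ratios to Igj and in all 6 to Mzb1, where the differences were 0.49 for Slpi, -0.03 for Reln, -0.08 for Neb, 0.11 for Cacna1h, 0.34 for Oosp1 and 0.43 for Gpr55. Over the 6 libraries the ratio to Igj spanned 0.43 for Neb and 0.45 for Cacna1h (log2), and 1.39 for Slpi and 1.70 for Gpr55.

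**Figure D4:**
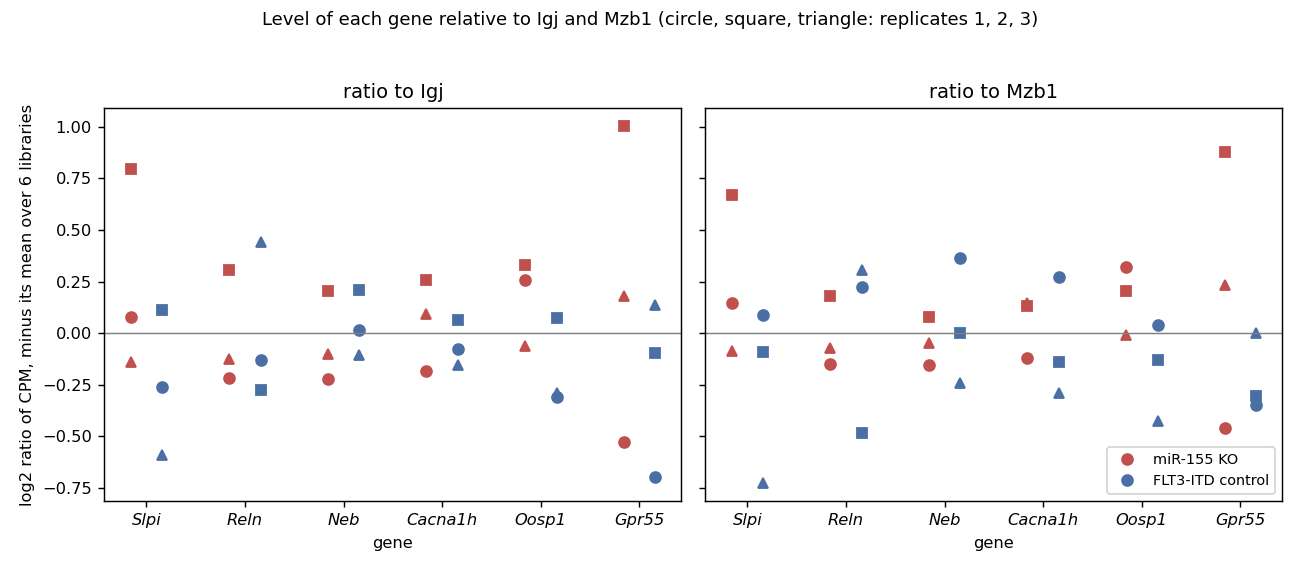
Log2 ratio of each gene's CPM to that of Igj (left panel) and Mzb1 (right panel) in each library, minus the mean ratio over the 6 libraries. KO and control points overlap for every gene, Neb and Cacna1h have the narrowest spread against Igj, and KO replicate 2 (red square) is high for Slpi and Gpr55.

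The 5 genes whose log2 CPM over the 6 libraries was most like that of a member (mean log2 CPM of at least 1) were mostly immunoglobulin genes for Neb, Cacna1h and Oosp1. Nearest to Neb were the light chain segment Igkv14-111 (r = 0.997), Cacna1h (0.996), Ighv1-26 (0.996), Ighv1-4 (0.995) and Igkv6-23 (0.995). Cacna1h had Ighv1-26 (0.997), the kappa constant gene Igkc (0.997), Neb (0.996), Igkv6-23 (0.994) and Ighv3-1 (0.992) as its nearest. For Oosp1 the nearest were Igkv1-117 (0.997), Ighg2b (0.995), Ighv5-4 (0.995), Ighv1-53 (0.995) and Igj (0.993). Counts of near-identical V segments are uncertain, since how reads shared between them were counted is not known. Reln was nearest to Iglv3 (0.995), Emc8 (0.991), Ikzf3 (0.991), Ighv8-12 (0.991) and Gja1 (0.990). Ikzf3, a transcription factor of late B cells and plasma cells, had a log2 fold change of -1.53 (adjusted p 0.263 in edgeR, 0.0132 with the replicate block). Slpi was nearest to Zfp658 (0.996), Ubac1 (0.991), Neb (0.990), Ube4a (0.989) and Igkv6-25 (0.988), of which Zfp658, Ubac1 and Ube4a had small differences, with log2 fold changes of -0.53, -0.18 and -0.21. Gpr55 had no immunoglobulin gene among its nearest 5, which were F2rl1 (0.997), Fam214a (0.990), Etl4 (0.988), Sugp1 (0.987) and Mrpl13 (0.984). F2rl1, a protease-activated receptor, had a log2 fold change of -1.56 (adjusted p 0.585 in edgeR, 0.0666 with the replicate block). Of the 50 nearest genes, immunoglobulin genes made up 62% for Oosp1, 60% for Neb, 58% for Cacna1h, 58% for Slpi, 42% for Reln and 18% for Gpr55, against 1.18% of the 12519 genes compared. All 50 were lower in the KO for each member. The members were chosen as lower in these libraries, where most of the lowest genes are immunoglobulin genes, so the direction and much of these shares go with that choice, and nothing is read from them.

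Most of the listed markers of plasma cells were lower in the KO, as the 6 genes were. The summed CPM of 12 listed plasma cell markers ranged from 925 to 2089 in KO libraries and from 3394 to 4958 in control libraries, with Igj as the largest single term in each library. The 10 markers other than Igj and Mzb1 summed to between 458 and 671 CPM in the KO and between 704 and 1036 CPM in the control, without overlap. Of the 12, 11 had a negative log2 fold change, the median was -1.37 against 0.001 over all tested genes, and 0 passed in edgeR, while 10 had an unadjusted p under 0.05 (2.48% of all tested genes did so as lower). DESeq2 called 5 of the 12 (0.794% of all genes as lower), and with the replicate block 7 passed as lower (1.04% of all tested genes). The 11 negative log2 fold changes ran from -1.96 for Mzb1 to -0.15 for Fkbp11, and that of Slamf7 was 0.12. None of the 12 was at 0 in all libraries. The defining marker Sdc1 (syndecan 1) had 22.5, 8.44 and 27.4 CPM in KO replicates 1 to 3 and 46.7, 30.5 and 57.1 CPM in control replicates 1 to 3. Prdm1, the regulator of the plasma cell programme, had 4.28, 2.30 and 5.09 CPM in the KO and 14.5, 7.91 and 11.3 CPM in the control. Tnfrsf17, a receptor that keeps plasma cells alive, had 1.53, 0.895 and 4.68 CPM in the KO and 7.81, 3.78 and 9.63 CPM in the control. Its groups overlapped, with KO replicate 3 above control replicate 2. The adjusted p in edgeR was 0.934 for Sdc1, 0.341 for Prdm1 and 0.9996 for Tnfrsf17. With the replicate block it was 0.0158 for Sdc1, 0.0185 for Prdm1 and 0.0675 for Tnfrsf17. KO replicate 2 was the lowest KO library for all 3 markers and KO replicate 3 the highest, the order that 5 of the 6 members had, and control replicate 2 was the lowest control library. The part of plasma cell RNA in the members' differences was not tested.

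Markers of granulocytes also lay apart between the groups. Neutrophil markers summed to between 340.2 and 530.3 CPM in the KO and between 612 and 759.8 CPM in the control. Their 9 genes were all negative, with a median log2 fold change of -0.70, and 0 passed in edgeR with or without the block. Without it 7 had an unadjusted p under 0.05 (2.48% of all tested genes did so as lower). DESeq2 called 4 (0.794% of all genes with an adjusted p, as lower). The defining Ltf, lactoferrin, had a log2 fold change of -0.70. Eosinophil, basophil and mast cell markers summed to between 41.0 and 61.2 CPM in the KO and between 83.4 and 110.3 CPM in the control. Most of that difference was Prg2, an eosinophil granule protein with 21.3, 13.2 and 25.7 CPM in the KO and 51.8, 69.2 and 74.9 CPM in the control, with a log2 fold change of -1.71 (adjusted p 0.0881 in edgeR and 0.00929 with the replicate block, and called by DESeq2). The defining Epx had 1 to 6 counts per library and Mcpt8 a log2 fold change of -0.13. The groups overlapped for mature B cell markers, at 35.0 to 50.9 CPM in the KO and 45.8 to 73.4 CPM in the control, and the log2 sum had an r of 0.837 with Igj over the 6 libraries. Of the 4 tested genes of that list 3 were negative, with a median log2 fold change of -0.55. In edgeR 2 had an unadjusted p under 0.05 (2.48% of all tested genes did so as lower), and 0 passed with or without the block or in DESeq2. Cd79a, a chain of the B cell receptor, had 11, 7 and 22 counts in the KO and 57, 39 and 55 in the control. In CPM its groups did not overlap either (at most 3.03 in the KO and at least 4.47 in the control). The same was found in 4.79% of all tested genes, with the KO lower. Cd79a had a log2 fold change of -1.63 (adjusted p 0.473 in edgeR and 0.0533 with the replicate block). The log2 sums of the neutrophil list and of the eosinophil, basophil and mast cell list had an r of 0.617 and 0.911 with Igj. The part of these cells in the members' differences was not tested. The defining markers of neurons and skeletal muscle, for which Reln and Neb are best known, had few counts, and that of oocytes, for which Oosp1 is, was low but above the limit that a count of 0 allows in each library. The neuron list summed to between 1.02 and 1.38 CPM in the KO and between 0.802 and 1.52 CPM in the control, and its defining marker Rbfox3 had 1 count in 6 libraries. The skeletal muscle list summed to at most 21.4 CPM in the KO and at most 25.7 CPM in the control, with overlapping groups. Its largest term was Ttn, titin, with 58 to 200 counts per library, and its log2 sum had an r of 0.834 with Igj. The defining Acta1 had 1 count in each KO library and 0 in each control library, and Ckm had 1 to 8 counts per library. The oocyte list summed to between 0.550 and 2.29 CPM in the KO and between 0.867 and 1.49 CPM in the control, with 4 to 12 counts of its defining marker Gdf9. Macrophage markers were high in the number 1 library of both groups (416 CPM in the KO and 624 CPM in the control) and at most 112.6 CPM in the others, an order that none of the 6 genes followed in both groups.

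**Figure D5:**
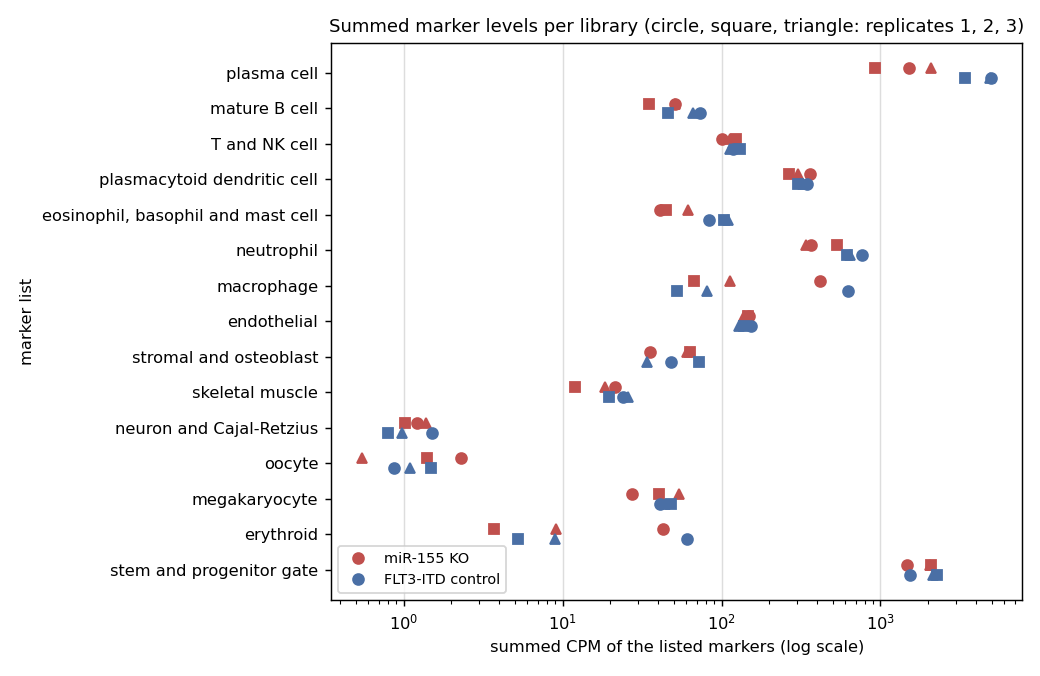
Summed CPM (log axis) of each marker list in the 6 libraries, KO above control within each row. The groups lie apart for plasma cell, eosinophil, basophil and mast cell, and neutrophil markers, and overlap for the other lists, including the stem and progenitor gate.

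The relatives and pathway partners of each gene were examined from lists of named genes. None of these other genes passed the threshold in either direction, in edgeR with or without the replicate block or in DESeq2. Over all 13217 tested genes, 515 had an unadjusted p under 0.05 in edgeR, both directions counted. For Slpi the list held 16 tested protease inhibitors and target proteases of neutrophils, with a median log2 fold change of 0.04 against 0.001 for all tested genes, and 0 had an unadjusted p under 0.05 in edgeR. The 3 with the smallest p were Timp2, an inhibitor of metalloproteinases (-0.36), Wfdc21, a protein with the same type of domain as Slpi (-0.67), and Serpinb9, an inhibitor of granzyme B (0.50). For Reln the list held 19 tested genes of its receptors and their signalling, with a median of -0.02. Gsk3b, a kinase downstream of reelin receptors, had -0.19 and was the only one with an unadjusted p under 0.05. Dab2, an adaptor related to the reelin adaptor Dab1, had -0.93, and Crk, which binds phosphorylated Dab1, 0.16. Among 10 tested relatives of Neb and proteins of the sarcomere the median was -0.06 and 0 had an unadjusted p under 0.05 in edgeR. Nebl, nebulette, had -0.66, Lasp1, a small actin-binding member of the family, 0.16, and Ttn, titin, -0.51. The 9 other voltage-gated calcium channel genes had a median of -0.14, and 2 had an unadjusted p under 0.05. Cacna1s, the pore of the skeletal muscle L-type channel, had 55, 57 and 46 counts in the KO and 142, 95 and 107 in the control. In CPM its groups did not overlap either (at most 8.41 in the KO and at least 10.9 in the control). The same was found in 4.79% of all tested genes, with the KO lower. Its log2 fold change was -0.84 ± 0.20 (SE; adjusted p 0.408 in edgeR and 0.0850 with the replicate block). Cacnb3, an auxiliary subunit, had 200, 155 and 75 counts in the KO and 103, 96 and 68 in the control, and a log2 fold change of 0.99 (adjusted p 0.9996 in edgeR). Only 2 other oocyte genes were tested, Gdf9 (0.28) and Tle6 (0.01), and 0 of them had an unadjusted p under 0.05. The 22 genes of cannabinoid and lysolipid signalling listed for Gpr55 had a median of 0.02, and 1 of them, Mgll, an enzyme that degrades the endocannabinoid 2-arachidonoylglycerol, had an unadjusted p under 0.05. Mgll had a log2 fold change of -0.89, Faah, which degrades anandamide, -0.63, and Cnr2, the cannabinoid receptor of immune cells, 0.48 (adjusted p 0.861 for Mgll and 0.9996 for the other genes in edgeR).

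None of the 6 longest annotated 3' UTRs (GENCODE M21), of 245 bases in Slpi, 331 in Oosp1, 611 in Neb, 1019 in Reln, 1818 in Cacna1h and 2556 in Gpr55, held a match to the miR-155-5p seed. The sites searched on the transcript strand were the 8mer AGCATTAA, the 7mer-m8 AGCATTA and the 7mer-A1 GCATTAA, each gene counted once under its longest site. Among 11723 tested genes with an annotated 3' UTR (median 1185 bases), 3.37% had the 8mer, 6.0% a 7mer-m8 and 4.58% a 7mer-A1, and 86.1% had none. The absence of these letters says nothing beyond these UTRs. Promoters of 4 members matched RefSeq's table of 32851 windows (GRCm38.p6), those printed above. On either strand, the octamer ATGCAAAT was in none of the 4 and in 1.74% of all windows, and the unfolded protein response core TGACGTGG in none and in 0.676%. The XBP1 core CCACG, whose reverse complement lies inside TGACGTGG, was in the Slpi window at -147, in the Reln window at -168 and in the Oosp1 window at 46 from the start, and in 32.8% of all windows. It is short and common. GGAANNGAA was in the Gpr55 window at -247 (8.24% of all windows) and GAAANNGAA at -207 (8.56%). No motif searched was thus shared by all 4. Their base composition differed as well, with 43.3% G and C in Slpi, 49.3% in Oosp1, 52.3% in Gpr55 and 80.7% in Reln, against a median of 52.7% over all windows. A match is a description of the letters, not of a bound site.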

How the data were processed

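RNA-seq was measured in 6 libraries of sorted mouse bone marrow cells, grouped and numbered by their titles. The authors deposited whole-number counts per gene and library, used here as they stand, and FPKM values, used only for levels between genes. They also deposited their own log2 fold changes and adjusted p-values. Per the submitters' processing notes the tools were DESeq2 1.10.1 and Novoalign 2.08.01, and the build mm10. Which program counted the reads, on which annotation and with which strand setting is not given in the sources used here, so genes with an annotated partner on the other strand inside or across them (Reln, Neb, Cacna1h and Gpr55) are uncertain to that extent. Those partners that have counts had at most 4 per library.

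The members and all gene lists were chosen with earlier results of these data known. KO and control were tested in R 4.3.3 with edgeR 4.0.16 (TMM, filterByExpr with a minimum count of 10 and a minimum total of 15, two-sided quasi-likelihood F test on group alone, Benjamini-Hochberg over the 13217 tested genes, threshold 0.05). Log2 fold changes are KO over control, each with an SE from the F statistic. The fit was tested on simulated data. CPM used TMM library sizes, and log2 CPM a prior count of 2. A count of 0 allows up to 3 counts, 0.325 to 0.459 CPM, and intervals cover counting error only. Coordinates and 3' UTRs are from GENCODE M21 (GRCm38), which matched 21966 of the 22475 genes. Immunoglobulin genes are those with that biotype, plus 4 taken by symbol.

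Genes named are the members, Igj, Mzb1, label checks, the 5 nearest patterns of each member, up to 3 genes of each family list by p, neighbouring genes and defining markers. Prg2, Cd79a, Fkbp11 and Slamf7 were named after their values were seen. The values of 1 defining marker are not reported here.

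Deviations from the group means correlated between libraries of equal number by r = 0.57, 0.53 and 0.22 for numbers 1, 2 and 3, and by at most 0.13 between unequal numbers. All 3 exceed 0.1, so pair differences and a fit with the number as a block are also given. The main edgeR fit and the fits without 1 library used group alone. The pairing rests on the data, since the labels do not say what a number shares. The alternatives were DESeq2 1.42.0, limma-voom (limma 3.58.1), other size factors and filters, library sizes without immunoglobulin genes, the replicate block, a prior count of 0.5 and leaving out each library.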

Additional observations from a re-analysis of the deposited data

How the results depend on the processing

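All 6 genes kept a negative log2 fold change under every alternative run. With 21 genes past the threshold over all tested genes and 1 of the 6 members among them in edgeR, DESeq2 gave 131 and 5, no filter on low counts 97 and 5, and the replicate block 180 and 6. Library sizes without immunoglobulin genes, a filter of 1 CPM in 3 libraries, limma-voom and other size factors gave 17 to 21 genes and 1 member. Leaving out each library gave 0 to 27 genes and 0 to 2 members: 0 genes passed in edgeR when control replicate 1 or 3 was left out (766 and 356 had an unadjusted p under 0.05, the 6 members among them), 9 when control replicate 2 was, and 16, 8 and 27 when KO replicates 1, 2 and 3 were. Without KO replicate 3 Slpi and Cacna1h passed, and without any other library none of the 6 did. The cause was not tested. Over these fits the log2 fold change ranged from -1.77 to -1.42 for Slpi, -2.50 to -1.74 for Reln, -2.48 to -1.79 for Neb, -2.36 to -1.56 for Cacna1h, -1.94 to -1.37 for Oosp1 and -1.99 to -1.22 for Gpr55. Of 78 fold changes recomputed, 59 kept their side of the threshold, 14 newly passed and 5 (Slpi) no longer passed. All 84 recomputed r with Igj or Mzb1 moved by under 0.1; the lowest was 0.856 (Gpr55 with Igj). A prior count of 0.5 kept at least 4 of the 5 and 44 of the 50 nearest genes. Neb and Gpr55, with 7 to 24 counts in KO libraries, are the members whose ratios depth limits most.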

Other observations

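The nearest tested gene on either side of each member differed little, with 1 exception. Of these 12 neighbours, 11 had overlapping groups. Groups apart with the KO lower were found in 4.79% of all tested genes. Sdc4, syndecan 4, whose nearer end (its 3' end) lies 35152 bases beyond Slpi on chromosome 2, had 57, 39 and 50 counts in the KO and 127, 111 and 104 in the control. It averaged 6.86 ± 1.87 CPM in the KO and 13.1 ± 0.618 CPM in the control (SD, n = 3 each), and its log2 fold change of -0.93 ± 0.22 (SE) had an adjusted p of 0.401 in edgeR and 0.0784 with the replicate block. Prss34, a mast cell and basophil protease next to Cacna1h, had -0.57, and the other 10 neighbours lay between -0.11 and 0.12 on that scale.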
